A study of Mus musculus with 5 samples.

Results

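The same tagged β-catenin was pulled down from CHIR99021-treated mouse embryonic stem cells in 2 ways, with an antibody against its FLAG epitope and with streptavidin beads that bind its biotin, and the peaks of both pull-downs are compared here. The members are the 2 ChIP-seq libraries of CHIR99021-treated cells and the input they share, which makes 3 of the 5 samples of the series, and they were chosen by their labels. The series also holds a ChIP library of DMSO-treated cells with its own input. It is labelled as a streptavidin capture, though its run and file names say FLAG. All came from V6.5 embryonic stem cells with a biotin and 3xFLAG tag knocked into Ctnnb1, the gene of β-catenin, grown in serum and LIF on DR4 feeder cells, and the cells that stayed afloat over gelatin-coated plates were taken as the stem cell fraction. CHIR99021 was given at 3 µM for 16 h per the protocol (24 h in the series text, and 3 mM in the extraction text), and 10000000 cells were used per ChIP. Streptavidin beads were washed in SDS, per the labels. All libraries come from 1 engineered line, and a pull-down from untagged cells was not analysed here.

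β-Catenin carries the canonical Wnt signal to the nucleus. It has no DNA-binding domain of its own and reaches chromatin mainly through TCF/LEF transcription factors. GSK3, which CHIR99021 inhibits, is the kinase of the destruction complex that marks β-catenin for degradation. FLAG is a short peptide that an antibody recognises, whereas the biotin tag is a peptide that the bacterial ligase BirA couples to biotin, and streptavidin holds biotin tightly enough to survive detergent washes.

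A peak here is an interval called by MACS, a tag is an aligned read counted in it, and the summit is the base that MACS gives as its highest point. Overlapping or touching peaks of both lists were merged into regions, and each list's tags in a region were summed and divided by that library's unique tags, 16100920 for anti-FLAG and 11934863 for streptavidin. The result, in tags per 1000000 unique tags, is called normalised tags below. In this unit 1 tag was worth 0.0621 in the anti-FLAG library and 0.0838 in the shallower streptavidin library. The tags of a region were counted within each list's own peak limits, and a library without a peak there has no value. Each capture had 1 library, so no spread between replicates exists and no test across samples was possible. All 95% intervals below cover counting error only. Coordinates are those of mm9, and no gene is named because the gene and promoter tables at hand are of another build.

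The anti-FLAG list held 16069 peaks and the streptavidin list 15947, and together they formed 22658 regions. Both captures held 9113 of these, or 40.2% (95% exact interval 39.6 to 40.9%). Anti-FLAG alone held 6814 (30.1%) and streptavidin alone 6731 (29.7%). The shared regions took most of the signal. They had 76.6% of the tags in anti-FLAG peaks and 75.0% of those in streptavidin peaks.

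In the shared regions the median level was 3.42 normalised tags by anti-FLAG (quartiles 2.24 and 5.59) and 3.85 by streptavidin (2.51 and 6.28). Regions of 1 capture were weaker, with a median of 1.55 normalised tags (1.12 and 2.30) for anti-FLAG alone and 1.84 (1.34 and 2.77) for streptavidin alone. They were also shorter and more thinly filled. Median peak length was 692 bp in regions of anti-FLAG alone against 977 bp for anti-FLAG in shared regions, and 750 bp against 1043 bp for streptavidin. Per kb of peak, regions of 1 capture had medians of 2.28 and 2.48 normalised tags, against 3.33 and 3.55 in shared regions, in the order anti-FLAG and streptavidin.

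Most of the shared regions were simple pairs. In 8888 of 9113 (97.5%), 1 peak of each list formed the region. In 121 regions 2 anti-FLAG peaks met 1 streptavidin peak, in 84 it was 1 against 2, in 19 it was 2 against 2, and in 1 it was 3 against 1. Few sites were thus split into pieces by either capture.

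The 10 shared regions with the highest level over both libraries were all higher by streptavidin in normalised tags, by 1.15 to 1.82 times. The leading one, chr17:44740356-44743178, had 2435 anti-FLAG tags (151 normalised) and 3111 streptavidin tags (261 normalised), a ratio of 1.72 (95% interval 1.63 to 1.82). Its neighbour chr17:44744697-44747810 had 541 and 729 tags, a ratio of 1.82 (1.62 to 2.04). These neighbours had the highest streptavidin to anti-FLAG ratios of the 10 strongest regions. All 10 held at least 1 DMSO peak, as did 51.8% of the 912 shared regions of highest summed level. In the first of the 10, DMSO peaks held 3073 tags.

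The others of the 10 lay between ratios of 1.15 and 1.39. The region chr9:94559442-94563343 had 1223 and 1207 tags, or 76.0 and 101 normalised. The region chr9:69514870-69519669 had 959 and 912, or 59.6 and 76.4 normalised. The region chr11:97521750-97524728 had 809 and 804, or 50.2 and 67.4 normalised. Raw tag counts were thus nearly equal in these 3 regions, out of fewer unique tags in the streptavidin library. The rest were chr1:37040251-37045978 (716 and 690 tags), chr7:6208976-6212323 (726 and 617), chr4:107404976-107407757 (623 and 550), chr1:91830084-91834310 (564 and 581) and chr2:44379283-44382619 (593 and 527). Streptavidin peaks were 0.970 to 1.24 times as long as anti-FLAG peaks in these 10 regions. In 8 of them the summits of both captures lay 30 bp or less apart, and in chr17:44744697-44747810 and chr2:44379283-44382619 they lay 2267 and 1217 bp apart.

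Across all 9113 shared regions the streptavidin to anti-FLAG ratio of normalised tags had a median of 1.14 (95% order-statistic interval 1.13 to 1.15), with quartiles of 0.949 and 1.35. Streptavidin was higher in 6241 of them (68.5%). This direction depended on the scaling. Divided by the tags in each list's own peaks, in place of all unique tags, the median log2 ratio was -0.04 rather than 0.19. Peaks took up 6.60% of unique tags by streptavidin and 5.65% by anti-FLAG. Such a change shifts every region's log2 ratio by the same amount, so the order of regions by ratio does not depend on it. The log2 levels of both captures had a Pearson correlation of 0.900 and a Spearman correlation of 0.876 across the shared regions, given as a description, since the regions share both libraries and the same input.

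**Figure D1:**
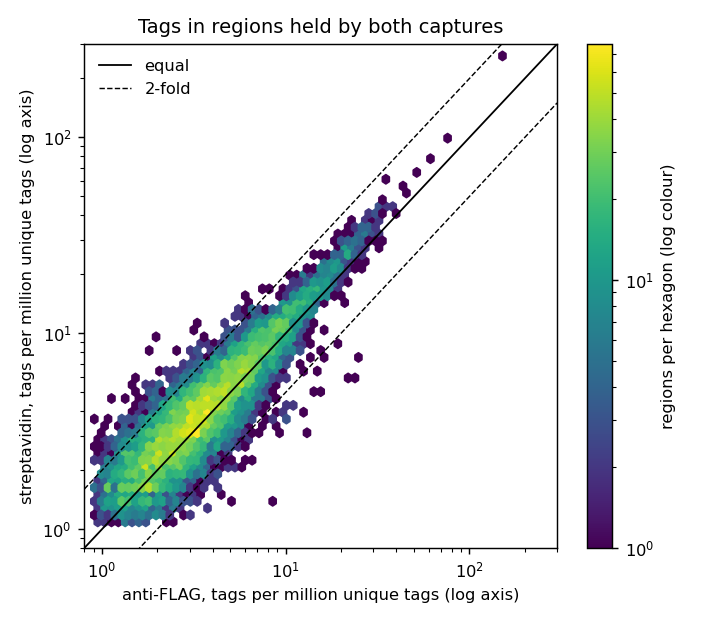
Normalised tags (tags per 1000000 unique tags) by anti-FLAG (x axis, log scale) and by streptavidin (y axis, log scale) in the 9113 regions held by both captures, coloured by the number of regions per hexagon. The solid line marks equal levels and the dashed lines 2-fold differences. Most regions lie between the dashed lines, slightly above the solid one, and a few below the lower dashed line reach 20 or more normalised anti-FLAG tags.

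A 2-fold difference was rare. With 2-fold as the limit, 273 of 9113 shared regions were higher by streptavidin (3.00%, interval 2.66 to 3.37%) and 77 by anti-FLAG (0.845%, 0.667 to 1.05%). These shares are the background for every count of such regions below. Scaled to the tags in peaks, the split turned over, with 106 regions (1.16%) higher by streptavidin and 181 (1.99%) by anti-FLAG.

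At weak sites few ratios lay beyond counting error, and at strong sites more did. A ratio's interval narrows as tags increase, so this rise does not show that the captures differed more at strong sites. Peaks also had a smallest count, 14 tags by anti-FLAG and 13 by streptavidin, which limits the ratios possible at the lowest levels. The shared regions were cut into 10 groups of equal size by the summed level of both libraries. In the lowest group, with medians of 23 anti-FLAG and 19 streptavidin tags, the 95% interval of a region's ratio left out the overall median of 1.14 in 18 of 912 regions (1.97%). In the second highest group, with medians of 118 and 101 tags, it did so in 245 of 911 (26.9%), and in the highest, with 203 and 173 tags, in 209 of 912 (22.9%). The standard deviation of the log2 ratio over regions was 0.42 in the lowest group, 0.50 in the next and 0.30 in the highest. The median ratio stayed between 1.11 and 1.17 in all 10 groups.

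The tag ratio moved with the called length. Over the shared regions the log2 tag ratio and the log2 length ratio had a Pearson correlation of 0.689 and a Spearman correlation of 0.645. The same tags enter both measures, so this too is a description. Where streptavidin peaks were at least 2 times as long (168 regions, medians of 1870.5 bp against 814 bp), the median tag ratio was 2.04, but per kb of peak it was 0.874. Where they were under 0.5 times as long (88 regions, 762 bp against 1795.5 bp), the tag ratio was 0.543 and the ratio per kb 1.27. In the 7697 regions with lengths within 1.5-fold, the tag ratio was 1.12 and the ratio per kb 1.09. At both ends of the length ratio the capture with the longer peak thus had more tags but fewer per kb, which was not so in the regions of similar length.

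Regions higher by streptavidin were mostly regions where its peak was longer. Of the 273, the streptavidin peaks were the longer ones in 269, against 58.8% of all 9113 shared regions. Tags were summed within each list's own peak limits, so a longer peak can hold more of them. Median lengths in the 273 were 1304 bp by streptavidin and 740 bp by anti-FLAG. Only 16 of the 273 also differed 2-fold per kb. Among regions with at least 100 tags over both libraries, the highest ratio was at chr1:93433536-93435729. It had 33 anti-FLAG tags (2.05 normalised) over 929 bp and 114 streptavidin tags (9.55 normalised) over 2194 bp, a ratio of 4.66 (3.14 to 7.09). At 1.97, its ratio per kb was the highest among the 8 regions of highest ratio.

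In the other 7, the ratio per kb was between 0.862 and 1.27. At chr8:82014028-82016822, 29 anti-FLAG tags lay in 566 bp and 94 streptavidin tags in 2795 bp. At chr12:28025203-28028664 it was 52 tags in 984 bp and 133 in 3378 bp, and at chr4:33069134-33072926 it was 49 in 958 bp and 124 in 3793 bp. These 3 also had the largest length ratios, at 4.94, 3.43 and 3.96. The remaining ones were chr7:34952427-34955142, chr6:146582116-146584122, chr7:38340441-38342401 and chr17:31560955-31563386, with ratios from 2.85 to 3.22. Of shared regions with 100 or more tags over both libraries and a ratio within 2-fold, 21.6% contained a DMSO peak. Of the 91 regions with as many tags that were at least 2-fold higher by streptavidin, 9 did (9.89%). None of the 8 did, and the part of level was not tested. In each of the 8 an anti-FLAG peak of 566 to 984 bp met a streptavidin peak of 1901 to 3793 bp.

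Most regions higher by anti-FLAG also had the longer peak in that capture. This was so in 70 of the 77, against 41.0% of all 9113 shared regions. Median lengths in the 77 were 1276 bp by anti-FLAG and 745 bp by streptavidin, and 18 of the 77 also differed 2-fold per kb. The 8 with the largest difference, among those with at least 100 tags over both libraries, had 139 to 400 anti-FLAG tags and 17 to 89 streptavidin tags. Their streptavidin peaks were 0.502 to 1.04 times as long as the anti-FLAG peaks. At chr2:32873243-32874121, anti-FLAG gave 139 tags (8.63 normalised) and streptavidin 17 (1.42 normalised), so anti-FLAG was 6.06 times higher (3.65 to 10.7). At chr4:139814445-139815697 it was 400 and 70 tags, or 24.8 and 5.87 normalised, which is 4.24 times higher (3.28 to 5.54). At chr9:21754335-21755436 it was 352 and 73 tags, or 21.9 and 6.12 normalised, which is 3.57 times higher (2.77 to 4.66). In that last region the called lengths were 1070 and 1065 bp and the summits were 10 bp apart, so nearly the same stretch was called by both with unequal tags.

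The others of these 8 were chr8:87470090-87471763 (206 and 36 tags), chr4:150978239-150979578 (386 and 89), chr8:14072188-14073419 (257 and 61), chr14:64300049-64301094 (151 and 36) and chr11:118445845-118446895 (197 and 48). Per kb of peak, anti-FLAG was 2.30 to 3.56 times higher in all 8, and the summits lay 3 to 86 bp apart. All 8 contained a DMSO peak, with 19 to 114 tags. Of shared regions with 100 or more tags over both libraries and a ratio within 2-fold, 21.6% did. Among the 912 shared regions of highest summed level it was 51.8%, and the part of level was not tested.

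**Figure D2:**
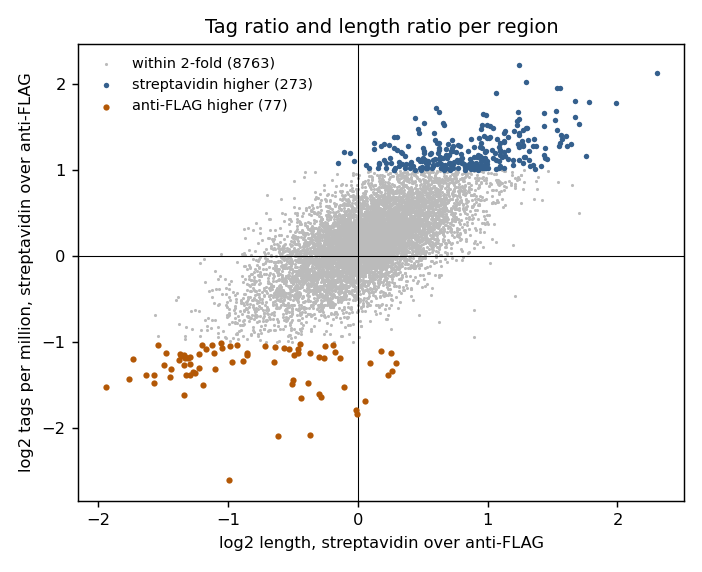
Log2 ratio of normalised tags (y axis) against log2 ratio of peak length (x axis), both streptavidin over anti-FLAG, for the 9113 shared regions, with one point per region. Blue points are the 273 regions at least 2-fold higher by streptavidin and lie almost entirely at longer streptavidin peaks. Orange points are the 77 at least 2-fold higher by anti-FLAG, and 70 of them lie at longer anti-FLAG peaks.

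Measured as normalised tags per kb of peak, 28 shared regions (0.307%) were at least 2-fold denser by anti-FLAG and 47 (0.516%) by streptavidin. The 28 were strong by anti-FLAG, with medians of 137.5 anti-FLAG and 41 streptavidin tags in peaks of 860 and 940.5 bp. The 47 were weak, with medians of 26 and 38 tags. Of the 28, 18 also differed 2-fold in summed tags, and of the 47, 16 did.

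Length was also taken at its extremes, again among shared regions of at least 100 summed tags. Besides the 3 regions above, chr11:107213726-107216516 had a streptavidin peak 3.38 times as long as the anti-FLAG one (2791 and 826 bp), with 146 and 88 tags. In the other direction, chr3:122135213-122139082 had an anti-FLAG peak of 3870 bp with 162 tags and a streptavidin peak of 1008 bp with 42, and its summits were 30 bp apart. At chr11:19823638-19827185, 2 anti-FLAG peaks of 3406 bp in all faced a streptavidin peak of 1001 bp. The last of these were chrX:11861800-11863803 (2004 and 604 bp) and chr8:125098028-125101470 (3443 and 1168 bp). All 4 regions with the longest relative anti-FLAG peaks were denser by streptavidin per kb, by 1.27 to 1.83 times.

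Over all shared regions, streptavidin peaks were 1.06 times as long as anti-FLAG peaks at the median (1.05 to 1.06), with a median of 1043 against 977 bp. They were the longer ones in 58.8% of regions and the shorter ones in 41.0%. In the 8888 simple pairs, streptavidin peaks reached a median of 25 bp further to the left and 27 bp further to the right. MACS had used a fragment shift of 214 bp for streptavidin and 185 bp for anti-FLAG, a difference of 29 bp, and its part in the lengths was not tested. The anti-FLAG peak lay wholly inside the streptavidin peak in 32.1% of pairs, and the reverse held in 18.4%.

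Both captures placed their summits close together. The distance between the summits had a median of 41 bp (40 to 43) and quartiles of 18 and 83 bp. It was 50 bp or less in 57.3% of shared regions, 100 bp or less in 80.4% and 200 bp or less in 92.0%. The signed offset, streptavidin minus anti-FLAG, had a median of 1 bp (0 to 2) with quartiles of -40 and 42 bp, so neither capture was displaced to one side. The streptavidin summit fell inside an anti-FLAG peak in 98.6% of regions and the anti-FLAG summit inside a streptavidin peak in 98.8%.

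The median distance between summits was smaller at stronger sites. Over the 10 groups by summed level, it was 52 bp in the lowest, 45 bp in the fifth and 25 bp in the highest. The share of summits over 500 bp apart went the other way, at 0.658%, 3.62% and 4.82% in these groups. Wide regions included more distant summits. Where the mean peak length was 2000 bp or more (532 regions), the median distance was only 38 bp, yet 15.6% of the summits were over 500 bp apart, against 0.592% in regions under 1000 bp. Each summit lies inside its own peak, so the peak lengths limit this distance and short regions leave little room for distant summits.

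**Figure D3:**
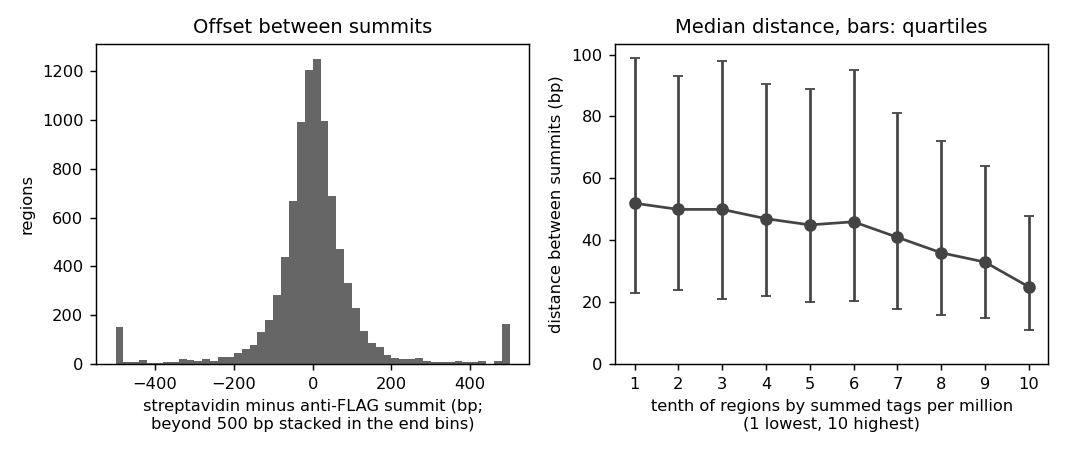
Left, number of shared regions by offset of the streptavidin summit from the anti-FLAG summit in bp, with offsets beyond 500 bp stacked in the end bins. Right, distance between the summits in 10 groups of equal size by summed normalised tags, with points at the median and bars at the quartiles. The offsets centre on 1 bp, and the median distance is 52 bp in the lowest group and 25 bp in the highest.

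Among shared regions of at least 100 summed tags, the 3 largest distances occurred in very wide regions. These had high tag counts in both libraries, and only wide regions can hold summits so far apart. In chr9:62672922-62679013 the summits were 4430 bp apart, with 372 anti-FLAG and 303 streptavidin tags and a ratio of 1.10 (0.941 to 1.28). In chr8:109138246-109144794 they were 3758 bp apart, with 372 and 258 tags and a ratio of 0.936 (0.795 to 1.10). In chr9:61213655-61221202 they were 3292 bp apart, with 374 and 363 tags and a ratio of 1.31 (1.13 to 1.52). In these 3 regions the streptavidin peaks were 0.857 to 0.921 times as long as the anti-FLAG peaks, with 3.35 to 4.86 normalised tags per kb in both. The next, chr4:133310008-133313977, also differed in tags, with 153 and 46.

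The share of sites of one capture that the other also called was larger at higher levels. Of regions with under 1.5 normalised anti-FLAG tags, 769 of 4076 (18.9%, 17.7 to 20.1%) held a streptavidin peak. The share was 61.2% from 2 to 3, 77.8% from 3 to 5, 91.7% from 5 to 10 and 99.0% (97.9 to 99.6%) from 10 upward. From the streptavidin side the shares were 14.1% under 1.5, 54.0% from 2 to 3, 71.7% from 3 to 5, 86.7% from 5 to 10 and 97.2% (96.0 to 98.1%) from 10 upward. The same level stands for fewer tags in the streptavidin library. From 3 to 5, for example, regions held 49 to 80 anti-FLAG tags or 36 to 59 streptavidin tags.

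From 2 to 10 normalised tags, shorter regions had the larger share at a given level in both lists. From 3 to 5 normalised tags, anti-FLAG regions under 1000 bp were matched in 86.4% (84.4 to 88.3%) and those of 1000 bp or more in 72.8% (70.8 to 74.7%). For streptavidin it was 85.5% (83.4 to 87.5%) and 65.4% (63.5 to 67.2%). From 5 to 10 the shares were 95.3% and 91.1% for anti-FLAG and 98.1% and 85.4% for streptavidin. From 10 upward the order was the opposite. For anti-FLAG 22 of 23 short regions were matched (95.7%, 78.1 to 99.9%) against 99.1% of longer ones, and for streptavidin 25 of 33 short regions were matched (75.8%, 57.7 to 88.9%) against 972 of 993 longer ones (97.9%). Among the short streptavidin regions without a match are chr6:79767895-79768779, chr9:35112478-35113368 and chr12:98299489-98300192, described below.

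**Figure D4:**
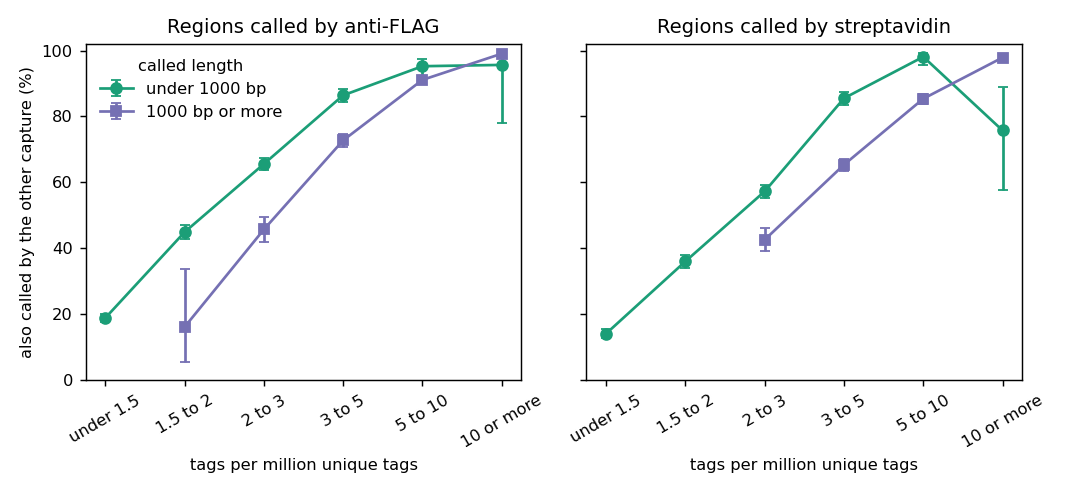
Share of regions also called by the other capture (y axis, %) by normalised tags (x axis), for anti-FLAG regions (left) and streptavidin regions (right), with called length under 1000 bp in green and 1000 bp or more in purple. Bars are 95% exact intervals, and groups of under 20 regions are not drawn. From 3 to 5 the shares are 86.4% and 72.8% for shorter and longer anti-FLAG regions, and streptavidin regions of 10 or more have the opposite order, at 75.8% and 97.9%.

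Strong sites of a single capture were few. Of regions with 10 or more normalised tags, 8 were called by anti-FLAG alone and 29 by streptavidin alone. At 5 or more it was 187 and 375. These 187 and 375 regions were wide, with median peak lengths of 1743 and 1825 bp, against 692 and 750 bp over all regions of their kind. In 2898 shared regions taken at that level the anti-FLAG median was 1397.5 bp, and the streptavidin median is not given here. Of shared regions, 2726 had 5 or more normalised tags by anti-FLAG and 3251 by streptavidin. The 2898 were thus not set by 1 library alone, whereas the 187 and 375 were.

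The strongest regions of anti-FLAG alone were mostly broad. At chr4:3006434-3013648, 521 tags (32.4 normalised, 95% exact Poisson interval 29.6 to 35.3) lay over 7215 bp, and at chr16:3231416-3237833, 383 tags (23.8 normalised) over 6418 bp. Both held a DMSO peak, of 15 and 8 tags. The nearest streptavidin peak was 711 kb from the region on chromosome 4 and 2.40 kb from that on chromosome 16. Then came chr8:86262736-86266189 with 222 tags and chr9:108728660-108730604 with 221. The first of this pair lay 82 bp from a streptavidin peak. The region chr9:108728660-108730604 held a DMSO peak of 47 tags and was 24.6 kb from the nearest streptavidin peak.

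Of the other 4, chr9:40606289-40610046, chr8:94656471-94659313 and chr9:20804348-20807986 had 172 to 189 tags over 2843 to 3758 bp. Their nearest streptavidin peaks were 2.89, 59.8 and 20.2 kb away, in that order. The last, chr4:152173226-152174097, was sharp, with 163 tags in 872 bp and no streptavidin peak within 420 kb. At 11.6 normalised tags per kb it was the densest of the 8, whose median was 3.95.

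The strongest regions of streptavidin alone had far more tags per kb. The highest, chr1:24618181-24623212, had 7407 tags, or 621 normalised (607 to 635), and held DMSO peaks of 6807 tags in all. It took more tags than any other region in either list. Next were chr10:95539852-95541026 with 676 tags in 1175 bp (56.6 normalised) and a DMSO peak of 664 tags, and chr2:98506218-98507868 with 409 tags in 1651 bp. After them came chr6:79767895-79768779 (337 tags in 885 bp, with a DMSO peak of 331 tags) and chr9:35112478-35113368 (305 in 891 bp).

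The remaining 3 were chr11:53953339-53954360, chr18:3638268-3639336 and chr12:98299489-98300192, the last with a DMSO peak of 219 tags. All 8 had 20.8 to 123 normalised tags per kb, far above the median of 2.48 for regions of streptavidin alone and above the 2.94 to 11.6 of the 8 strongest of anti-FLAG alone. The nearest anti-FLAG peak was 6.93 to 341 kb away. Of all regions of streptavidin alone, 2.42% held a DMSO peak, and of those with 5 or more normalised tags 9.60% did. In 4 of the 8 strongest the DMSO library had a peak, with 219 to 6807 tags against 259 to 7407 in the CHIR99021 streptavidin library. These are raw counts, since totals for the DMSO library are not in its header. Tags of the input in these regions were not analysed here.

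Few regions of 1 capture lay beside a peak of the other. In all, 3.76% of regions of anti-FLAG alone lay within 1 kb of a streptavidin peak and 4.23% of regions of streptavidin alone within 1 kb of an anti-FLAG peak, with median distances of 36.6 and 37.0 kb. Shared regions lay closer to each other. A further shared region was within 10 kb for 21.9% of shared regions, against 13.8% of regions of anti-FLAG alone and 14.8% of those of streptavidin alone.

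Chromosomes were alike in the ratio of both captures and less so in the share of regions found by both. On the 19 autosomes the median ratio ranged from 1.10 on chromosome 10 to 1.17 on chromosome 13, and on chromosome X it was 1.14. Regions held by both made up 36.3% (chromosome 12) to 42.8% (chromosome 4) on the autosomes. On chromosome X it was 51.6% (314 of 608, 47.6 to 55.7%), although the shared regions there were weaker than elsewhere, with medians of 2.39 and 2.68 normalised tags and peak lengths of 784 and 840.5 bp. Chromosome Y had 2 anti-FLAG peaks and no streptavidin peak.

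Chromosomes 8 and 9 held the most strong regions of 1 capture. They held 60 of the 187 regions of anti-FLAG alone with 5 or more normalised tags (32.1%, 25.5 to 39.3%) and 127 of the 375 of streptavidin alone (33.9%, 29.1 to 38.9%). Of all regions of these kinds they held 12.7% and 13.3%, and of the 2898 shared regions above 16.9% (15.6 to 18.3%). Strong regions of streptavidin alone numbered 63 on chromosome 8 and 64 on chromosome 9, against 28 on chromosome 11, the next highest. For anti-FLAG alone it was 22 and 38 against 20 on chromosome 11, so chromosome 8 was close to the next highest there. The shared regions on chromosomes 8 and 9 were also stronger, with anti-FLAG medians of 4.66 and 4.47 normalised tags against 3.11 to 3.60 on the other autosomes. The median ratio there was 1.13 and 1.15.

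**Figure D5:**
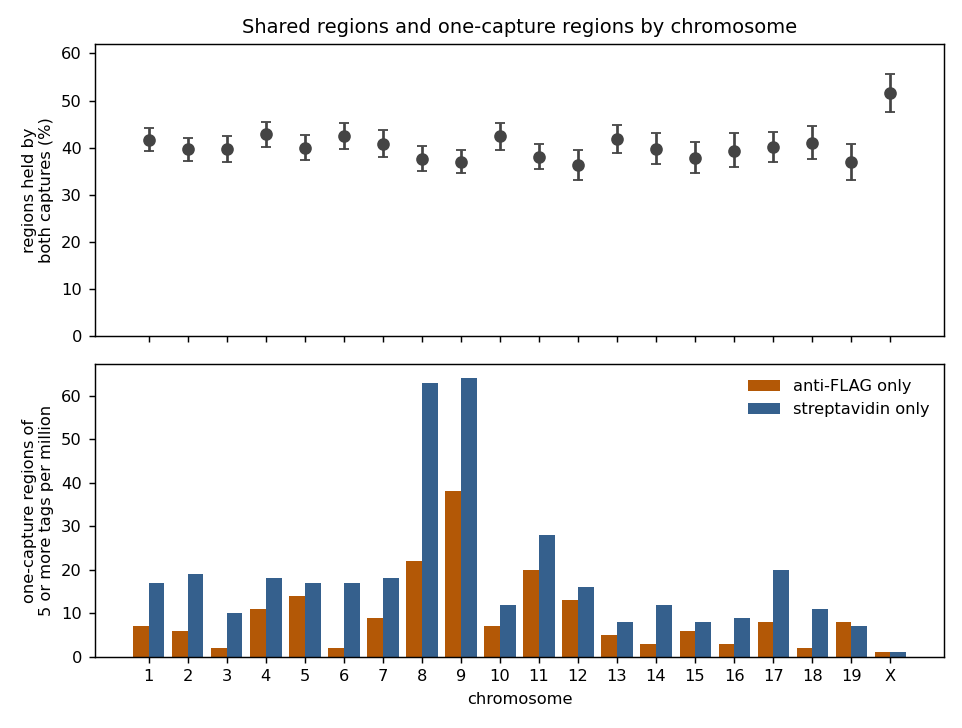
Top, share of merged regions held by both captures (y axis, %) by chromosome, with 95% exact intervals. Bottom, number of regions of 5 or more normalised tags called by anti-FLAG alone (orange) or streptavidin alone (blue). Chromosome X is highest in the top panel at 51.6%, and chromosomes 8 and 9 have the most strong regions of 1 capture in the bottom panel.

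The DMSO list played no part in forming the regions. Its peaks were called with a fragment shift of 30 bp and without known depth, so only their presence in a region was compared, and their raw tags are given where regions are named. A total of 1180 of the 9113 shared regions (12.9%, 12.3 to 13.7%) contained a DMSO peak, against 162 of 6814 (2.38%) of anti-FLAG alone and 163 of 6731 (2.42%) of streptavidin alone. Among shared regions at least 2-fold higher by anti-FLAG it was 19 of 77 (24.7%, 15.6 to 35.8%), and among those at least 2-fold higher by streptavidin 15 of 273 (5.49%, 3.11 to 8.90%). Counting only DMSO peaks of at least 10 tags, it was 428 of all 9113 shared regions (4.70%), 17 of 77 and 2 of 273. By the same count, it was 16 of the 28 regions denser by anti-FLAG per kb and 2 of the 47 denser by streptavidin. The 28 were the stronger regions, with medians of 137.5 anti-FLAG and 41 streptavidin tags against 26 and 38 in the 47. Over the 10 groups by summed level, the share with any DMSO peak was 1.86% in the lowest and 51.8% in the highest, and the part of level in these counts was not tested.

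Level moved with this comparison. Among shared regions with 100 or more tags over both libraries, a DMSO peak was present in 18 of 43 higher by anti-FLAG (41.9%, 27.0 to 57.9%), in 9 of 91 higher by streptavidin (9.89%, 4.62 to 17.9%) and in 978 of 4527 within 2-fold (21.6%). Below 100 tags it was 1 of 34, 6 of 182 and 168 of 4236. In the stronger set the anti-FLAG medians were 8.63 normalised tags for the first kind and 3.11 for the second, and streptavidin medians were 3.52 and 7.12. Peak lengths differed too, and the part of level and length in these shares was not tested. The DMSO library is a streptavidin capture by its label and the name of its aligned reads, while its run and file names say FLAG. The label was followed, and which capture it was could not be settled here.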

How the data were processed

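MACS peak tables made by the authors from ELAND-format alignments, with both ChIP libraries set against 1 input, were the starting point, per the file headers. No source used here gives the MACS version. Model fold was 20 for anti-FLAG and 32 for streptavidin. The submitters' processing notes name mm9. The authors deposited tags as raw counts per peak. Fold, p and FDR columns were not used. Peaks were merged when overlapping or touching, and the peak with the most tags gave a list's summit. Single ratios have exact conditional binomial intervals, shares exact (Clopper-Pearson) intervals and medians order-statistic intervals, all at 95%.

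Regions were named by rule. The rule took the 10 shared regions with the highest geometric mean of normalised tags. Among shared regions of at least 100 summed tags it took the 8 highest and 8 lowest tag ratios, the 4 highest and 4 lowest length ratios and the 4 largest summit distances. It also took the 8 strongest regions of each capture alone. The members, lists and comparisons were chosen with earlier results of these data known. Level limits, width limits and length-ratio groups were set after values were seen. Alternatives changed scaling, merging, count minimum, fold limit, chromosomes and summit choice. Planned results on sequences and genes were not run, since the tables at hand are of GRCm38. On 16069 simulated peaks, 9000 of 9000 planted shared regions were found and 200 of 200 planted 4-fold differences passed 2-fold. The planted pairs had the same start positions, so their overlap was given in advance and the first count checks only the code. Planted 4-fold differences lay well past the 2-fold limit, and simulated tags were drawn apart from peak lengths. The second count therefore checks only the code too. Software was Python 3.11.15 with pandas 2.3.3, numpy 2.4.6, matplotlib 3.10.9 and scipy 1.17.1.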

Additional observations from a re-analysis of the deposited data

How the results depend on the processing

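With 1 library per capture, no value measures a repeat of the experiment and no replicate was left out. No paired analysis was possible because neither capture has a second library. A region without a peak in one library has no tag value there, which limits all statements on regions of 1 capture. The median log2 tag ratio, 0.19, was 0.12 scaled to all tags and 0.11 per kb of peak. Scaled to the tags in peaks it was -0.038, a change of sign. The share 2-fold higher by streptavidin, 3.00%, was 2.29% with all tags, 1.16% with tags in peaks, 0.516% per kb and 16.0% at 1.5-fold. That higher by anti-FLAG, 0.845%, was 1.99% with tags in peaks, 0.307% per kb and 4.41% at 1.5-fold. The share of regions held by both captures, 40.2%, was 37.2% with 50% reciprocal overlap and 47.4% with peaks of at least 20 tags. With the same smallest level in both lists it was 42.2%, and the median of regions of anti-FLAG alone went from 1.55 to 1.80 normalised tags. That setting and all for the DMSO list were added after seeing the data. Among regions higher by streptavidin, the share with a DMSO peak, 5.49%, was 0.733% for DMSO peaks of at least 10 tags and 1.89% when scaled to tags in peaks. For those higher by anti-FLAG it was 17.1% to 24.6% under the alternatives, against 24.7%. The length ratio and the summit distance stayed within their intervals without chromosomes X and Y, in simple pairs, with the longest peaks and with the nearest summits.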
